A study of Homo sapiens with 9 samples.

Results

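The MHC class I presentation pathway was followed through RNA-seq of the established human colorectal cancer line HCT116 by way of 9 genes. They were HLA-B, HLA-C, HLA-E, B2M, TAP1, TAP2, TAPBP, ERAP1 and NLRC5, picked by symbol, and all 9 members were found among the 60651 gene rows of the count table and passed the filter on low counts. The labels place the 9 libraries in 3 groups of 3. The shSLC6A3 DMSO cells carried a short hairpin RNA that targets SLC6A3, which encodes the dopamine transporter (DAT), and received the solvent DMSO. The shCTRL VXN cells carried a control hairpin and were treated with VXN, an abbreviation that is not explained in the labels. The shCTRL DMSO cells carried the control hairpin and received DMSO. All groups came from the same cell line, carried a hairpin and have WT as their labelled genotype. By its title, the series asks what loss of this transporter does to colorectal cancer cells.

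Class I molecules show peptides from inside the cell to CD8 T cells and natural killer cells. The proteasome cuts proteins, the TAP1 and TAP2 transporter moves the peptides into the endoplasmic reticulum, ERAP1 trims them, and tapasin (TAPBP) helps to load them onto a heavy chain bound to beta-2-microglobulin (B2M). NLRC5 is a transcriptional activator that acts at class I promoters, where interferon also acts through IRF factors. Loss of parts of this pathway is a known route of immune escape in colorectal cancer.

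The labels and the authors' deposited comparison tables did not describe the same groups. Total counts ran from 30251364 to 60215785 per library, and the 9 members together took between 0.0991% and 0.118% of each library. SLC6A3 itself had 3, 1 and 0 counts in the shSLC6A3 DMSO libraries, 0, 3 and 2 counts in the shCTRL VXN libraries and 6, 2 and 2 counts in the shCTRL DMSO libraries, too few to check the labels. The authors' deposited tables compare shCTRL V with shCTRL D and shDAT D with shCTRL D. A rerun of DESeq2 gave all 38907 deposited p-values of both tables, within 1e-06, when the columns were grouped across the labels. The shCTRL V columns were then shSLC6A3 DMSO replicate 1, shCTRL VXN replicate 3 and shCTRL DMSO replicate 3. The shDAT D columns were shCTRL VXN replicate 1 and shCTRL DMSO replicates 1 and 2. The shCTRL D columns were shSLC6A3 DMSO replicates 2 and 3 and shCTRL VXN replicate 2. Values by library are given below in this order, and which grouping is right could not be settled from the files. The shCTRL V columns stood apart from the other 6 libraries, as shown by the proliferation marker MKI67, at 62.2 to 74.4 CPM (counts scaled to library size) there against 518 to 610.2 CPM elsewhere. As a check of the labelled cell type, 6 of 6 epithelial markers were at 1 CPM or more on average, against 1 of 7 leukocyte markers and 1 of 6 fibroblast and endothelial markers. Of these lists, only the B cell marker MS4A1 had no count in any library.

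Promoter sequences show what the members share apart from their values. RefSeq on GRCh38.p14 held an entry, from 250 bases before to 50 bases after the start, for 7 of the 9 members; HLA-E and NLRC5 had none there. Both spellings of the interferon response element, the site bound by IRF factors, were searched on both strands: GAAANNGAAA and the shorter class I form GAANNGAAA. At least 1 of them lay in 7 of these 7 members, against 10.6% of 35116 promoters of the same length. These members had 9 promoter entries in all, of which 8 held either form. A member with more than 1 entry was counted if any of them held the motif. GAAANNGAAA alone lay in 5 members, against 3.57% of promoters, and GAANNGAAA in 4 members, against 7.66%. The 2 spellings overlap in TAP2. In ERAP1 they lay in different entries, and the GAANNGAAA site, at chr5:96814305-96814337 with its flanks, is not printed below. The CCAAT box, bound by NF-Y, lay in 5 members against 34.6% of promoters, TGACG, the core of the X2 element, in 4 against 24.6%, and the kappa-B element in 6 against 5.91%. These motifs were chosen after the member promoters had been read, so the counts describe the members and test nothing.

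The whole HLA-B and B2M promoters are printed as examples that hold the interferon, kappa-B, X2-type and CCAAT letters together, and these are in capitals. The HLA-C promoter also holds all of these motifs but is not printed whole. HLA-B is at chr6:31357130-31357429 on the minus strand and B2M at chr15:44711267-44711566 on the plus strand, each written 5′ to 3′ along its gene.
HLA-B: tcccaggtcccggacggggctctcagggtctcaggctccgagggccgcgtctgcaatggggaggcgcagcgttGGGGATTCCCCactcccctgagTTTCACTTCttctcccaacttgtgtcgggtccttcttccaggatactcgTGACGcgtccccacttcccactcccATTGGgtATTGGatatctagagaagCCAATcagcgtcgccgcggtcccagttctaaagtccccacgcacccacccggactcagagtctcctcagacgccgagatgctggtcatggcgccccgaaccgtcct
B2M: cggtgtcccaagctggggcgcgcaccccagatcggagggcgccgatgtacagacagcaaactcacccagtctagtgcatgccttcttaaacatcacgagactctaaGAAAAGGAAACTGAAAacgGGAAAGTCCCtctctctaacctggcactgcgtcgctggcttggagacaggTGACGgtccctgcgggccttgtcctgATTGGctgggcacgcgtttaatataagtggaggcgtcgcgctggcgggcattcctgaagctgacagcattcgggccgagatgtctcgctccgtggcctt

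For the other members with an entry, the interferon-type letters are shown in capitals with 12 flanking bases, all from minus-strand genes. The windows are chr6:31272223-31272255 for HLA-C, chr6:32853811-32853850 for TAP1, chr6:32838776-32838814 for TAP2, chr6:33314071-33314110 for TAPBP and chr5:96807922-96807955 for ERAP1. In HLA-C, TAP1 and ERAP1 the element runs on the opposite strand and so reads as TTTC repeats.
HLA-C: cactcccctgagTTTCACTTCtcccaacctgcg
TAP1: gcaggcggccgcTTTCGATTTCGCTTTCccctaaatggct
TAP2: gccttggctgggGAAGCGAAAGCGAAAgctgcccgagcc
TAPBP: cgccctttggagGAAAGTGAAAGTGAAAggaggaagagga
ERAP1: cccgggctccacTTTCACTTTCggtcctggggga

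Of the members, 6 lie in the MHC region of chromosome 6 in GENCODE v29 on GRCh38. HLA-C (chr6:31268749-31272130), HLA-B (chr6:31269491-31357188), TAP2 (chr6:32821833-32838780), TAP1 (chr6:32845209-32853978) and TAPBP (chr6:33299694-33314387) are on the minus strand and HLA-E (chr6:30489467-30494205) is on the plus strand. The others are ERAP1 (chr5:96760810-96808100, minus), B2M (chr15:44711487-44718877, plus) and NLRC5 (chr16:56989485-57083531, plus). Reads of the near-identical HLA genes can be shared between copies, so the 3 heavy-chain counts are uncertain in that way. TAP2 shares 2064 exon bases with a readthrough gene on its strand, which had 722 to 1726 counts per library. ERAP1 shares 299 exon bases with the opposite-strand gene CAST, which had 6193 to 12608 counts, and the kit does not mark strand.

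Per kilobase of exon, HLA-C was the most abundant member, with a median of 192 RPKM over the 9 libraries and a range of 171 to 204 RPKM. B2M (median 105, range 84.2 to 123 RPKM) and HLA-B (median 105, range 99.2 to 116 RPKM) followed and overlapped each other. HLA-E had a median of 51.1 RPKM, TAPBP of 24.9, TAP1 of 16.3 and TAP2 of 8.53 RPKM, and no ranges of neighbours in this part of the order overlapped. ERAP1 (median 1.62, range 1.25 to 3.41 RPKM) and NLRC5 (median 0.966, range 0.663 to 1.39 RPKM) were lowest, and their ranges met. The chains that reach the cell surface were thus more abundant at the RNA level than the transporter, the trimming enzyme and the activator in these libraries.

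**Figure D1:**
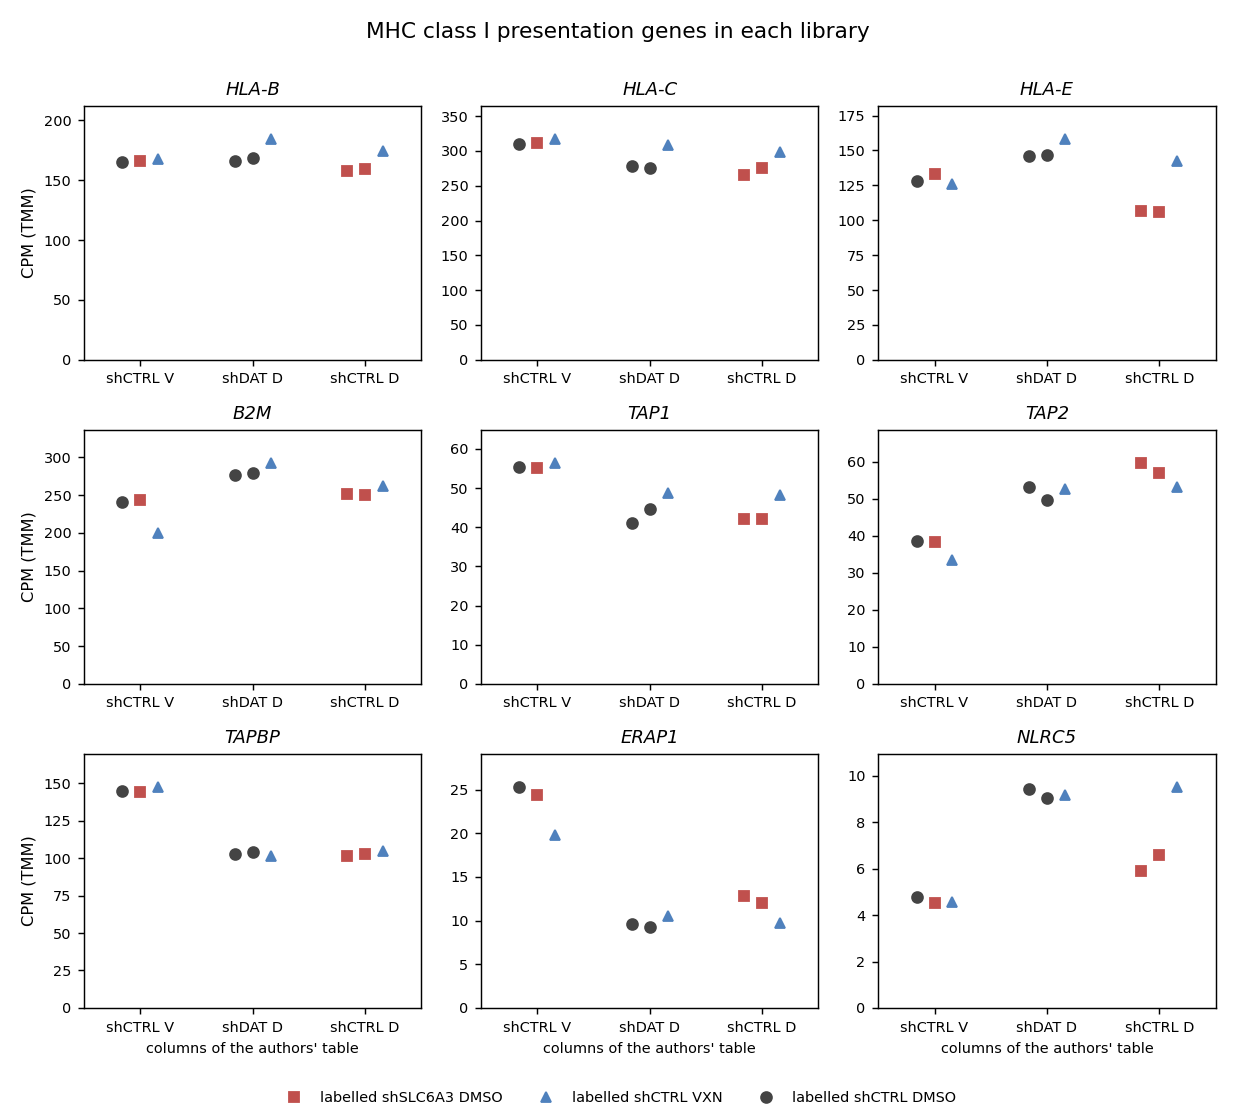
Level of each member in CPM (TMM-scaled, vertical axes from 0) in the 9 libraries, set out by the columns of the authors' tables, with colour and shape giving the labelled group. TAPBP sits at 144 to 147 CPM in the shCTRL V columns and at 101 to 105 CPM in all others, and each labelled group has 1 library in the shCTRL V columns.

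Between the labelled groups, no member passed the test. With edgeR's quasi-likelihood test and Benjamini-Hochberg adjustment over 20402 features, 0 of 9 members were called at an adjusted p below 0.05 in shSLC6A3 DMSO against shCTRL DMSO, where 0% of all features were called. Also 0 of 9 were called in shCTRL VXN against shCTRL DMSO, where 0.0098% were called. No member had an unadjusted p below 0.05 in either comparison, by edgeR without a replicate block or by DESeq2, which also called 0 of 9; over all features edgeR gave such a p to 4.56% and 1.88%, and DESeq2 to 3.07% and 1.9%. DESeq2 called 0% and 0.0817% of all features. The labels do not state that replicates were separate cultures, so these p-values measure the spread between libraries, which may be technical.

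HLA-E, the ligand of the NKG2A receptor of natural killer cells, came nearest to a difference. It averaged 115 ± 15.2 CPM in shSLC6A3 DMSO and 140 ± 10.4 CPM in shCTRL DMSO (SD, n = 3 each), a log2 fold change of -0.29 (SE 0.13, edgeR adjusted p = 0.978). The groups overlapped, because shSLC6A3 DMSO replicate 1, at 133 CPM, lay above shCTRL DMSO replicate 3, at 128 CPM. NLRC5 averaged 5.67 ± 1.05 CPM in shSLC6A3 DMSO and 7.75 ± 2.59 CPM in shCTRL DMSO (SD, n = 3 each), a log2 fold change of -0.45 (SE 0.35, edgeR adjusted p = 0.996) that ran from -0.70 to -0.29 with each library left out. ERAP1 varied widely for its level: 16.4 ± 6.95 CPM in shSLC6A3 DMSO, 13.3 ± 5.56 CPM in shCTRL VXN and 14.7 ± 9.14 CPM in shCTRL DMSO (SD, n = 3 each). In shCTRL VXN against shCTRL DMSO, the members' log2 fold changes ran from -0.14 for ERAP1 to 0.12 for TAP1, with edgeR adjusted p-values of at least 0.99998. Each labelled group held 1 library of the shCTRL V columns. In HLA-C, TAP1, TAPBP and ERAP1 that library was the highest of its group, and in B2M, TAP2 and NLRC5 it was the lowest.

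**Figure D2:**
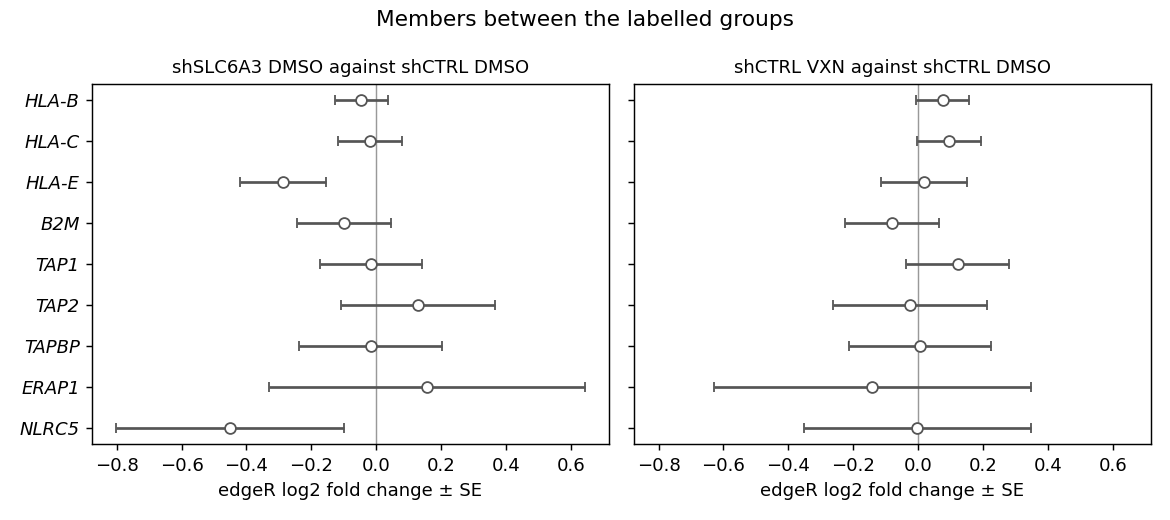
Log2 fold change with its SE for each member between the labelled groups, by edgeR. The values run from -0.45 (NLRC5) to 0.16 (ERAP1) for shSLC6A3 DMSO and from -0.14 to 0.12 for shCTRL VXN, and none was called.

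In the authors' deposited table of shCTRL V against shCTRL D, the transporter, loading and trimming genes changed in different directions while the heavy chains and B2M were not called. Of the 9 members, 5 had an adjusted p below 0.05: TAPBP, TAP1 and ERAP1 were higher, whereas TAP2 and NLRC5 were lower. Of all features with an adjusted p in that table, 44% were called, 21.4% higher and 22.7% lower, so the members' share was close to that of all features. The members' median log2 fold change in the authors' deposited table was 0.10, against -0.0016 over all features. The deposited log2 fold changes are shrunken towards 0.

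TAPBP, which holds the empty class I molecule to the transporter, stood at 144, 147 and 145 CPM in the shCTRL V columns, at 101, 103 and 104 CPM in the shDAT D columns and at 101, 103 and 105 CPM in the shCTRL D columns. The shCTRL V columns were all above the other 6. Its log2 fold change in the authors' deposited table was 0.47 (SE 0.048, adjusted p = 1.67e-21). TAP1 stood at 55.2, 56.4 and 55.2 CPM in the shCTRL V columns, 48.7, 41.0 and 44.7 CPM in the shDAT D columns and 42.1, 42.1 and 48.3 CPM in the shCTRL D columns. Again the shCTRL V columns were above all others, and the authors' deposited table gave TAP1 a log2 fold change of 0.30 (SE 0.083, adjusted p = 0.000773).

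TAP2, the other chain of the same transporter, moved the opposite way. It stood at 38.3, 33.6 and 38.7 CPM in the shCTRL V columns, 52.7, 53.3 and 49.7 CPM in the shDAT D columns and 59.7, 56.9 and 53.2 CPM in the shCTRL D columns. The authors' deposited table gave TAP2 a log2 fold change of -0.64 (SE 0.087, adjusted p = 9.00e-13). Per kilobase of exon, TAP1 stood at 3.01, 3.50 and 2.98 times TAP2 in the shCTRL V columns, 1.93, 1.60 and 1.87 times in the shDAT D columns and 1.47, 1.54 and 1.90 times in the shCTRL D columns. The readthrough gene that overlaps TAP2 had a log2 fold change of -0.68 (SE 0.10, adjusted p = 1.08e-10) in the authors' deposited table, so the TAP2 value may hold reads of both.

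ERAP1, the aminopeptidase that trims peptides to class I length, had the largest fold of the 9 members in this table. Its level was 24.4, 19.8 and 25.3 CPM in the shCTRL V columns, 10.6, 9.61 and 9.31 CPM in the shDAT D columns and 12.8, 12.01 and 9.72 CPM in the shCTRL D columns. No library of the shCTRL V columns overlapped the others, and the authors' deposited table gave ERAP1 a log2 fold change of 0.95 (SE 0.14, adjusted p = 1.01e-11). The opposite-strand gene CAST was also higher there, with a log2 fold change of 0.46 (SE 0.064, adjusted p = 5.67e-12) in the authors' deposited table, and its part in the ERAP1 value was not tested.

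NLRC5 stood at 4.52, 4.56 and 4.76 CPM in the shCTRL V columns, 9.17, 9.42 and 9.06 CPM in the shDAT D columns and 5.90, 6.59 and 9.52 CPM in the shCTRL D columns. The shCTRL V columns were the lowest, and shCTRL VXN replicate 2 stood with the shDAT D columns, not with the other 2 libraries of its table group. The authors' deposited table gave NLRC5 a log2 fold change of -0.65 (SE 0.17, adjusted p = 0.000137).

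Among the chains, HLA-C stood at 311, 317 and 309.5 CPM in the shCTRL V columns, 309, 279 and 276 CPM in the shDAT D columns and 266, 275 and 298 CPM in the shCTRL D columns. B2M stood at 243, 200.2 and 241 CPM, at 292, 277 and 279 CPM and at 251, 250.004 and 262 CPM in the same order. In both genes the shCTRL V columns did not overlap the shCTRL D columns, yet neither was called in the authors' deposited table, at 0.13 (SE 0.066, adjusted p = 0.0905) for HLA-C and -0.18 (SE 0.080, adjusted p = 0.0561) for B2M. HLA-B stood at 166, 167 and 165 CPM, at 184, 166 and 168 CPM and at 157, 159 and 174 CPM, and these ranges overlapped, with a log2 fold change of -0.00 in the authors' deposited table (SE 0.064, adjusted p = 0.984). Across the members, 7 of 9 members had shCTRL V columns that did not overlap the shCTRL D columns, against 67.5% of features of at least 1 CPM.

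Leaving out shCTRL VXN replicate 2 from the rerun of this table gave 8 calls among the 9 members, where 45.3% of features were called. HLA-C was then at 0.17 (DESeq2 adjusted p = 0.00491), HLA-E at 0.24 (1.46e-05) and B2M at -0.17 (0.0317) on the log2 scale. B2M was also called without shSLC6A3 DMSO replicate 1, at -0.22 (DESeq2 adjusted p = 0.0483), where 33.9% of features were called. Without shCTRL VXN replicate 3, whose B2M level was the lowest of the 9 libraries at 200.2 CPM, the B2M value was -0.0945 (DESeq2 adjusted p = 0.220). The 5 members called in the authors' deposited table were called without each of these libraries and without each of the others, where 38.7% (shCTRL DMSO replicate 3), 39.5% (shCTRL VXN replicate 3), 40.1% and 40.2% (shSLC6A3 DMSO replicates 2 and 3) of features were called. They were called as well in the DESeq2 rerun with all libraries (40.1% of features), without independent filtering (25.8%), with edgeR (54.6%) and with edgeR on DESeq2 size factors (54.2%).

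**Figure D3:**
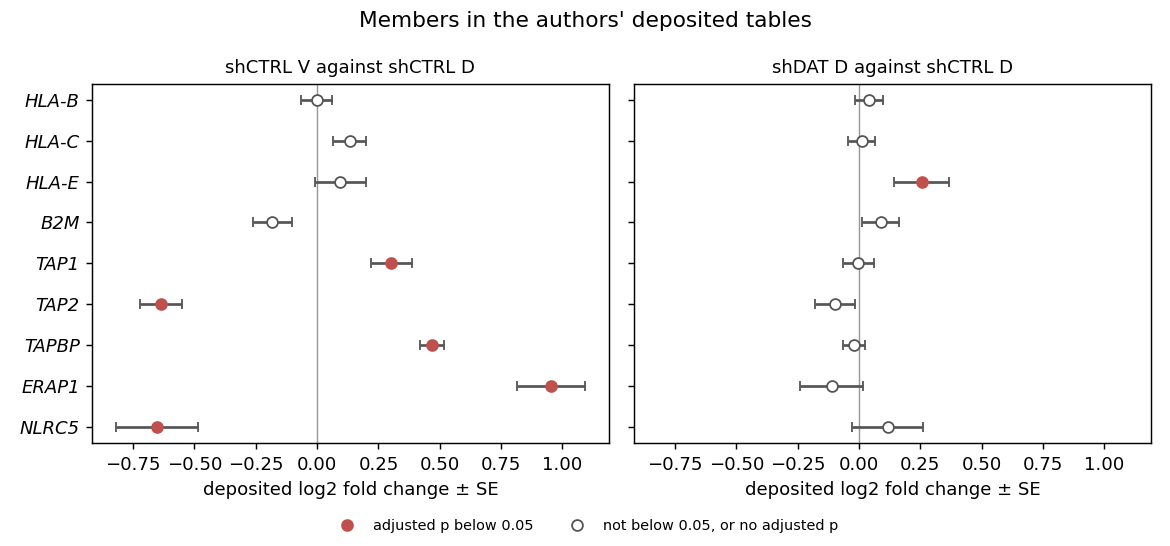
Log2 fold change with its SE for each member in the authors' deposited tables, shCTRL V against shCTRL D on the left and shDAT D against shCTRL D on the right, filled where the adjusted p is below 0.05. TAPBP, TAP1 and ERAP1 lie above 0 and TAP2 and NLRC5 below 0 on the left, and HLA-E is the filled point on the right.

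In the authors' deposited table of shDAT D against shCTRL D, HLA-E was higher and no other member was called. The 2 tables share the shCTRL D columns. HLA-E stood at 133, 126 and 128 CPM in the shCTRL V columns, 158, 146 and 147 CPM in the shDAT D columns and 107, 106 and 142 CPM in the shCTRL D columns. The shDAT D columns were above all others, but shCTRL VXN replicate 2, at 142 CPM, came close to the lowest of them, at 146 CPM. The authors' deposited table gave HLA-E a log2 fold change of 0.26 (SE 0.11, adjusted p = 0.0427), 1 call among the 8 members with an adjusted p, where 6.62% of features were called, 1% higher and 5.62% lower. NLRC5, with 0.12 (SE 0.15), had no adjusted p in the authors' deposited table. B2M, the other member whose columns did not overlap, was at 0.09 (SE 0.074, adjusted p = 0.253) in the authors' deposited table; 20.4% of features of at least 1 CPM did not overlap.

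The HLA-E difference kept its direction, but its call was lost under most other settings. Its log2 fold change was 0.32 in the unshrunken rerun, 0.34 with edgeR and 0.25 to 0.46 with each library left out, against the shrunken 0.26 of the authors' deposited table. The same p-value, adjusted in the rerun over 14048 features and not over the 10403 of the deposited table, gave an adjusted p of 0.0504, and edgeR gave 0.187. The rerun called 3.96% of features, edgeR 0% on either scaling, and DESeq2 without independent filtering 0.0231%, and none of these called a member. No member was called when any library other than shCTRL VXN replicate 2 was left out, that is, without shCTRL DMSO replicate 1 (0.0663% of features called), shCTRL DMSO replicate 2 (0.0324%), shCTRL VXN replicate 1 (0%) or either shSLC6A3 DMSO library (0% each). Leaving out shCTRL VXN replicate 2 instead gave 4 called members, where 34.9% of all features were called. HLA-E was then at 0.46 (DESeq2 adjusted p = 3.12e-17), NLRC5 at 0.53 (0.000136), ERAP1 at -0.38 (0.00433) and TAP2 at -0.21 (0.0126) on the log2 scale. TAPBP stayed at -0.03 (adjusted p = 0.742) and TAP1 at 0.05 (0.685), and their levels in the shDAT D and shCTRL D columns overlapped.

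**Figure D4:**
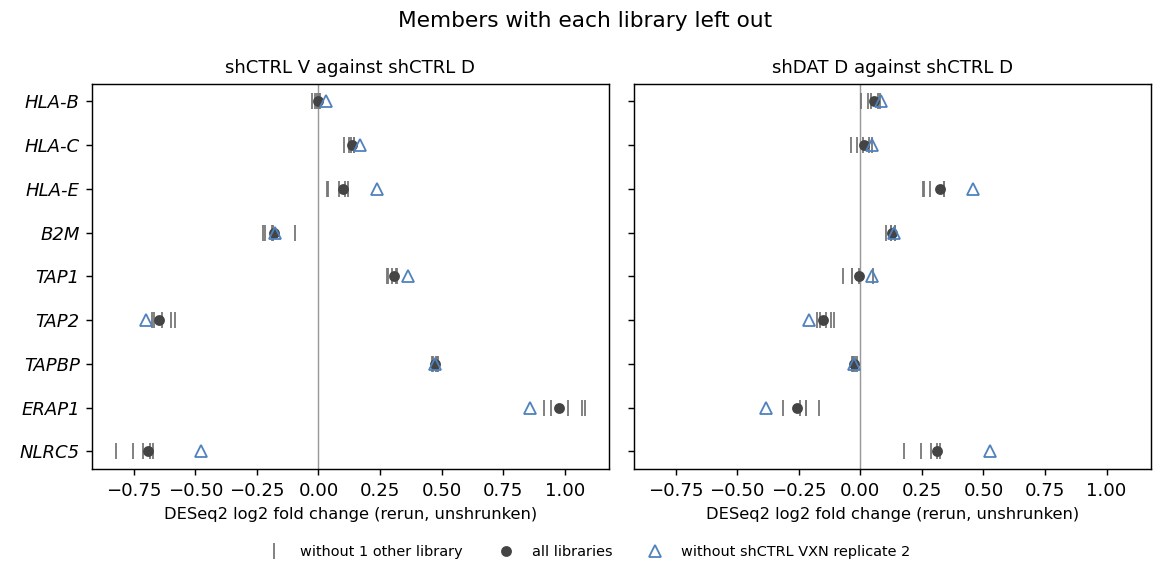
DESeq2 log2 fold change (unshrunken) of each member in the rerun of both deposited tables, with all libraries (filled circles), without shCTRL VXN replicate 2 (open triangles) and without each other library (ticks). In shDAT D against shCTRL D, HLA-E moves to 0.46 and NLRC5 to 0.53 without that library, and TAPBP stays near 0.

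Other genes of the pathway, from lists of known function, were read in the same tables. In the authors' deposited table of shCTRL V against shCTRL D, the inducible proteasome and its PA28 cap had 0 genes higher and 3 of 5 lower, against 21.4% and 22.7% of all features. In the authors' deposited table PSMB9 was at -1.40 (SE 0.31, adjusted p = 3.25e-06), PSMB10 at -0.95 (SE 0.15, adjusted p = 9.83e-11) and PSME1 at -0.24 (SE 0.061, adjusted p = 0.000350), while PSMB8 was at -0.53 (SE 0.51, adjusted p = 0.177). PSMB9 had 1.23, 0.80 and 0.94 CPM in the shCTRL V columns, 3.93, 3.15 and 4.38 CPM in the shDAT D columns and 2.42, 1.80 and 4.06 CPM in the shCTRL D columns, so shCTRL VXN replicate 2 again stood with the shDAT D columns. PSMB8 had at most 0.75 CPM in any library. None of the 3 constitutive catalytic subunits PSMB5, PSMB6 and PSMB7 was called in either of the authors' deposited tables.

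Of 16 regulators of class I transcription and of interferon gamma signalling, the authors' deposited table of shCTRL V against shCTRL D had 6 higher and 3 lower, against 21.4% and 22.7% of all features. IRF1, a factor that binds interferon response elements, was at 0.82 (SE 0.077, adjusted p = 1.56e-25) in the authors' deposited table, with 25.8, 24.0 and 25.6 CPM in the shCTRL V columns against 14.0, 13.3 and 14.4 CPM in the shCTRL D columns. The receptor chain IFNGR1 was at 0.51 (SE 0.084, adjusted p = 5.13e-09) and the kinase JAK1 at 0.98 (SE 0.099, adjusted p = 1.94e-22) in the authors' deposited table. EZH2, a histone methyltransferase, was at -1.13 (SE 0.11, adjusted p = 7.16e-24) in the authors' deposited table. RFX5, an X-box binding factor that works with NLRC5, was not called in the authors' deposited table of that comparison, at 0.13 (SE 0.10, adjusted p = 0.330). It was higher in the authors' deposited table of shDAT D against shCTRL D, at 0.27 (SE 0.11, adjusted p = 0.0383), a comparison in which edgeR called 0% of features. RFX5 stood at 52.2, 53.5 and 51.6 CPM in the shDAT D columns against 36.7, 37.5 and 49.0 CPM in the shCTRL D columns. IFNG had no count in any library.

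Lists of other surface molecules were read in the same comparison, shCTRL V against shCTRL D, beside the 21.4% of all features that were higher and the 22.7% that were lower. Of 5 ligands of the natural killer receptor NKG2D, the authors' deposited table had 4 higher and none lower, with MICA at 1.01 (SE 0.082, adjusted p = 4.59e-34) and ULBP1 at 0.88 (SE 0.12, adjusted p = 1.85e-13). MICA stood at 53.5, 53.2 and 53.1 CPM in the shCTRL V columns against 25.5, 27.8 and 24.2 CPM in the shCTRL D columns. Of the 8 class II genes with an adjusted p in the authors' deposited table, 3 were lower and none higher, with HLA-DRB1 at -2.22 (SE 0.43, adjusted p = 9.84e-08), from levels under 4 CPM. For 6 other class I and class I-like chains the authors' deposited table had 2 calls in each direction, with HLA-F at -0.81 (SE 0.17, adjusted p = 2.30e-06) and MR1 at 0.50 (SE 0.15, adjusted p = 0.00170). For peptide loading, the chaperone CANX was higher in the authors' deposited table, at 0.43 (SE 0.11, adjusted p = 0.000329), the 1 call among 3 genes. Of the 4 other peptide-trimming enzymes in the authors' deposited table, ERAP2 was at 0.46 (SE 0.22, adjusted p = 0.0464) and TPP2 at -0.43 (SE 0.075, adjusted p = 5.02e-08). In shDAT D against shCTRL D, the authors' deposited table had 6.62% of all features called, 1% higher and 5.62% lower. RFX5, of 15 regulators with an adjusted p, and LNPEP, of 3 other peptide-trimming enzymes, were the calls among these lists there. LNPEP was at -0.21 (SE 0.094, adjusted p = 0.0476) in the authors' deposited table. No class II gene had an adjusted p in that table, and edgeR called no feature in that comparison.

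**Figure D5:**
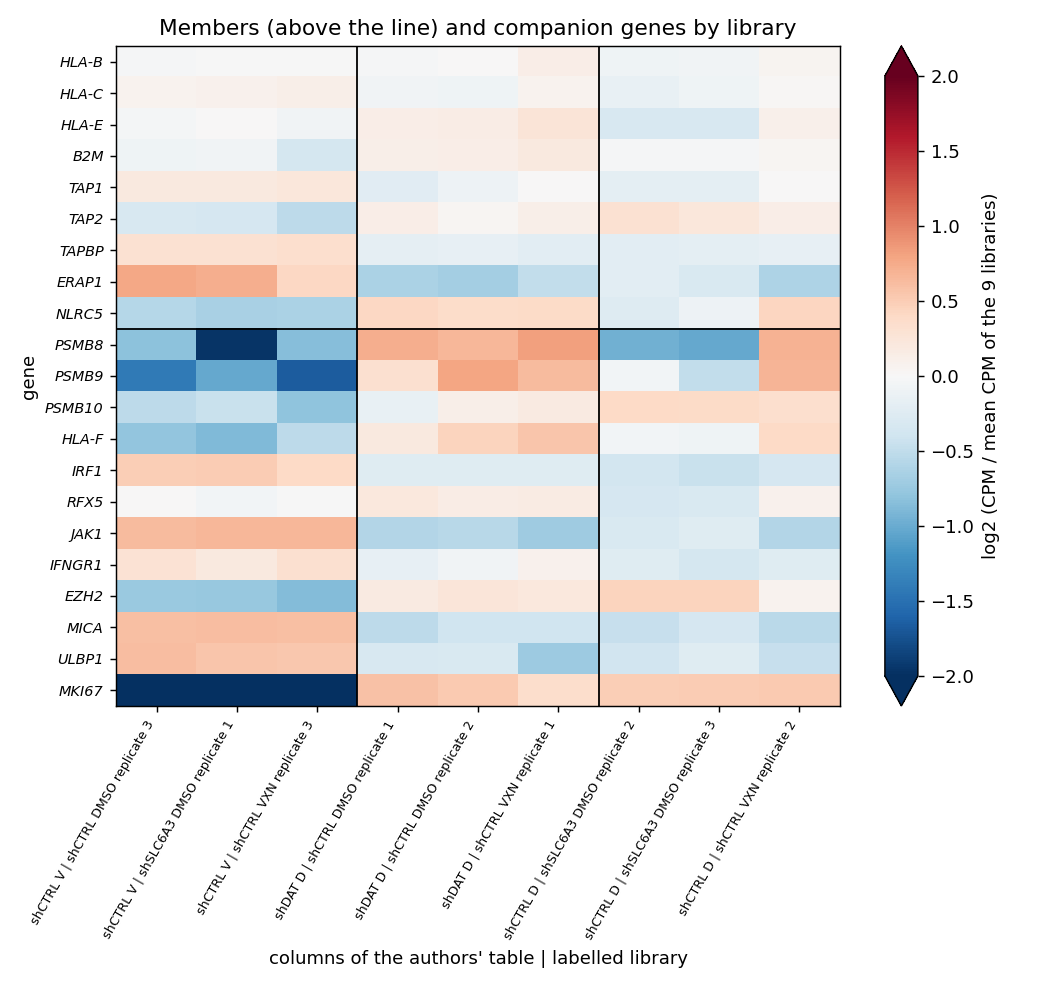
Level of the members (above the line) and of companion genes (below it) in each library, as log2 of CPM over the mean CPM of the 9 libraries, with colours ending at 2 in each direction. IRF1, JAK1 and MICA are high in the shCTRL V columns with TAPBP and ERAP1, MKI67 is past the low end there, and shCTRL VXN replicate 2 differs from the other shCTRL D columns in NLRC5, PSMB8 and PSMB9.

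Levels of other cell types' markers were set beside these results. Summed leukocyte markers, 6 of 7 with any count, were at 3.85 to 4.42 CPM in the shCTRL V columns, 7.64 to 8.22 CPM in the shDAT D columns and 4.12 to 7.88 CPM in the shCTRL D columns. Summed fibroblast and endothelial markers, 6 of 6 with any count, were at 33.8 to 48.7 CPM, 32.5 to 38.2 CPM and 19.5 to 36.9 CPM in the same order, and epithelial markers at 5057 to 5187 CPM, 4283 to 4457 CPM and 4313 to 4554 CPM. The fibroblast and endothelial sum was mostly COL1A1, with a mean normalised count of 1507 against 31.5 for VWF, the next gene. The leukocyte sum was mostly CD68, at 222 against 38.3 for CD8A, the next gene. The part of these markers in the members' values was not tested, nor was that of the difference in MKI67. In RNA from whole cultures, fewer cells with a gene switched on and less RNA per cell cannot be told apart.

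The genes most like each member over the 9 libraries, by Pearson's r of log2 CPM among 13434 genes other than the members, are given as a description, since the shCTRL V columns stand apart and shape every such r. TAPBP was most like ARFGAP3 (r = 0.999) and SMARCAL1 (0.998), TAP2 like TPGS2 (0.994) and SCFD2 (0.993), and ERAP1 like SNX24 (0.995) and PARP12 (0.994). NLRC5 was most like RBBP8NL (0.996) and FBN3 (0.996), HLA-E like FER1L4 (0.995) and SULT2B1 (0.985), and TAP1 like MTRNR2L1 (0.991) and YWHAZP3 (0.986). HLA-C was most like AKR1A1 (0.984) and FAM229A (0.976), B2M like PECR (0.980) and RPL27 (0.979), and HLA-B like RPL23AP42 (0.974) and SUN1 (0.954). The number of genes with r above 0.9 ran from 15 for HLA-B to 2525 for TAPBP.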

How the data were processed

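The 9 HCT116 libraries were prepared with TruSeq RNA v2 reagents for NextSeq sequencing, per the labels' protocols. The submitters' processing notes name fastp 0.20.1, FastQC 0.11.9, STAR, DESeq2 1.34.0 and GRCh38; how reads were counted (program, annotation release, strand setting) is not given in the sources used here. Unnormalised counts per gene and repeat (61832 rows, 1181 of them repeats) were deposited by the authors. Their deposited tables give log2 fold changes, p-values, and a base mean, which is a signal averaged over the normalised libraries. The deposited log2 fold changes were within 0.0044 of apeglm shrinkage (apeglm 1.24.0) for the members.

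Groups came from the labels; the third VXN title spells the treatment VNN, and the treatment label was used. The tests were edgeR 4.0.16 (R 4.3.3, TMM, quasi-likelihood, filter on low counts), with DESeq2 1.42.0, DESeq2 size factors, no filter, a replicate block and each library left out as alternatives. CPM values are TMM-scaled; RPKM divides by GENCODE v29 exon length. Same-numbered shCTRL VXN and shCTRL DMSO libraries deviated together from their group means (r of 0.684, 0.720 and 0.894). Replicate 3 of both groups is in the shCTRL V columns, which stand apart, so these r cannot show whether the numbers pair the libraries. The fits were tested on simulated data whose spread was estimated within the table groups, so that test does not cover the spread within the labelled groups. Named genes were the 9 members, PSMB8, PSMB9, IRF1, RFX5, MKI67 and up to 4 per list by adjusted p; CAST and the readthrough gene were added for their overlap. Some named items are left out and not reported here. Members and lists were chosen with earlier results of these data known. The table groupings come from an earlier search that used the values and were checked here by the rerun. The SE beside an edgeR log2 fold change is its unshrunken size over the root of the F statistic.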

Additional observations from a re-analysis of the deposited data

How the results depend on the processing

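Of the counts of called members, those of the labelled comparisons stayed at 0 under every alternative and with each library left out. The replicate block changed no member's call. In shSLC6A3 DMSO, replicate 1 is the library in the shCTRL V columns, and deviations of same-numbered libraries had r of -0.69, 0.64 and -0.67 with shCTRL DMSO. HLA-E with the block was at -0.29 in shSLC6A3 DMSO (edgeR unadjusted p = 0.0279, adjusted p = 0.961). For shCTRL V against shCTRL D the count was 5 to 8 with each library left out, 8 without shCTRL VXN replicate 2. For shDAT D against shCTRL D it was 0 in the DESeq2 rerun, without independent filtering (HLA-E adjusted p = 0.133), with edgeR, with edgeR on DESeq2 size factors and with apeglm, and 0 to 4 with each library left out. With all libraries kept, values near 0 changed sign. In shSLC6A3 DMSO, HLA-C, TAP1 and TAPBP were at 0.0016, 0.0047 and 0.0024 (log2) with DESeq2 and at 0.0016, 0.0046 and 0.0024 with its size factors, and TAPBP at 0.0014 with the block. TAPBP was at -0.0033 in shCTRL VXN with no filter. With edgeR, HLA-B was at 0.023 in the shCTRL V table, and TAP1 at 0.0186 and TAPBP at 0.0005 in the shDAT D table. With each library left out, the ranges that crossed 0 were, in shSLC6A3 DMSO, -0.0896 to 0.0343 for HLA-C, -0.1589 to 0.117 for TAP1, -0.2029 to 0.1612 for TAPBP and -0.2463 to 0.7948 for ERAP1. In shCTRL VXN they were -0.0683 to 0.0957 for HLA-E, -0.2045 to 0.0584 for B2M, -0.1494 to 0.1624 for TAP2, -0.1886 to 0.1866 for TAPBP, -0.5397 to 0.4997 for ERAP1 and -0.2565 to 0.2679 for NLRC5. In the tables they were -0.0241 to 0.0294 for HLA-B (shCTRL V), and -0.0378 to 0.048 for HLA-C and -0.0697 to 0.0511 for TAP1 (shDAT D). The ERAP1 ranges were wide and not confined to values near 0. Its 0.7948 and 0.4997 both came without shCTRL DMSO replicate 3. Its -0.2463 came without shSLC6A3 DMSO replicate 1 and its -0.5397 without shCTRL VXN replicate 3. These libraries are the shCTRL V columns. The causes were not tested.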
